A study of Mus musculus with 4 samples.

Results

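The response to interleukin 4 (IL-4) of macrophages lacking Trim24 was measured by comparing, gene by gene, the knockout library given IL-4 with the untreated knockout library. These are 2 of the 4 libraries of the series, and the others came from wild-type macrophages without and with IL-4. The knockout cells, labelled TIF1a-/- after another name of Trim24, came from C57BL/6 mice with floxed Trim24 alleles and Cre driven from the lysozyme M (Lyz2) promoter, which is active in myeloid cells, and the wild-type cells came from C57BL/6 mice. All mice were 6 to 8 weeks old. Macrophages drawn to the peritoneum by thioglycolate were left to adhere, kept in low serum, and given mouse IL-4 at 20 ng/mL for 6 h or left untreated. Each of the 4 groups holds 1 library, and nothing in the labels says how many mice or cultures it stands for, so no difference has a replicate check, every test compares libraries rather than conditions, and every error covers counting alone. In RNA from a whole culture, a change in the cells present and a change in RNA per cell cannot be told apart.

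IL-4 acts through a receptor coupled to Janus kinases, which phosphorylate the transcription factor STAT6. STAT proteins bind DNA as pairs at short palindromes that begin with TTC and end with GAA. In macrophages this pathway is known for the alternatively activated (M2) state, with induction of arginase, lectin receptors and inhibitors of cytokine signalling, and Trim24 is a co-regulator of transcription of the tripartite motif family.

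Genes absent from a table were set to 0. Of the 15761 genes with a read in the knockout pair, 10623 had at least 50 reads summed over the pair and were tested. Levels are given as FPKM, fragments mapped to a transcript scaled by its length and by the library total, and a response as the log2 ratio of FPKM + 0.1 in the IL-4 library over the untreated one, which understates the change of genes near 0. A gene was called higher or lower where its level differed more than 1.5-fold and the adjusted p was under 0.05 (two-sided Fisher's exact test on reads, Benjamini-Hochberg adjustment over the 10623 genes). Log2 ratios are followed by their counting standard error.

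Genotype and cell identity were checked first. Trim24 had 4 and 10 reads in the knockout libraries without and with IL-4, against 175 and 103 in the wild-type libraries, so it was too low to be tested in the knockout pair. Lyz2, the gene whose locus carries the Cre insertion in this driver line, was listed at 5193 and 4761 FPKM in the knockout libraries and at 11289 and 10811 FPKM in the wild-type ones. Macrophage markers were high in both knockout libraries: Cd68 was listed at 3378 FPKM without and 3005 FPKM with IL-4, and the receptor Csf1r at 135 and 285 FPKM. All 8 macrophage markers examined were tested, whereas none of the B cell, T cell, NK cell or dendritic cell markers reached the read minimum. The B cell genes Cd79a (30 and 17 reads, 2.07 and 1.17 FPKM) and Cd79b (23 and 26 reads, 1.69 and 1.99 FPKM) fell just short of it. Single markers of other cells reached the minimum at similarly low or slightly higher levels. S100a8 of neutrophils was listed at 5.26 and 7.52 FPKM and Siglecf of eosinophils at 2.04 and 1.47 FPKM. Cpa3 and Tpsb2 of mast cells were listed at up to 2.51 and 3.13 FPKM. None of these 4 genes, S100a8, Siglecf, Cpa3 and Tpsb2, was called. The knockout libraries held 11029779 reads without and 11026033 with IL-4.

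IL-4 moved 716 genes up (6.74% of those tested) and 588 genes down (5.54%) in the knockout macrophages, and the counts of listed genes given below are to be read against these shares. The lists were chosen with earlier results of these data known. Induction reached further than repression: 102 genes rose more than 4-fold and 38 more than 10-fold, against 13 and 1 that fell as far. The median log2 ratio over all tested genes was 0.01, and the middle 90% of genes lay between -0.65 and 0.74. Longer transcripts had slightly lower ratios. When genes were ranked by transcript length and cut into eighths, the bottom eighth had a median of 0.03 and the top eighth of -0.10, a narrower gap than the 0.17 and -0.38 of the wild-type pair.

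**Figure D1:**
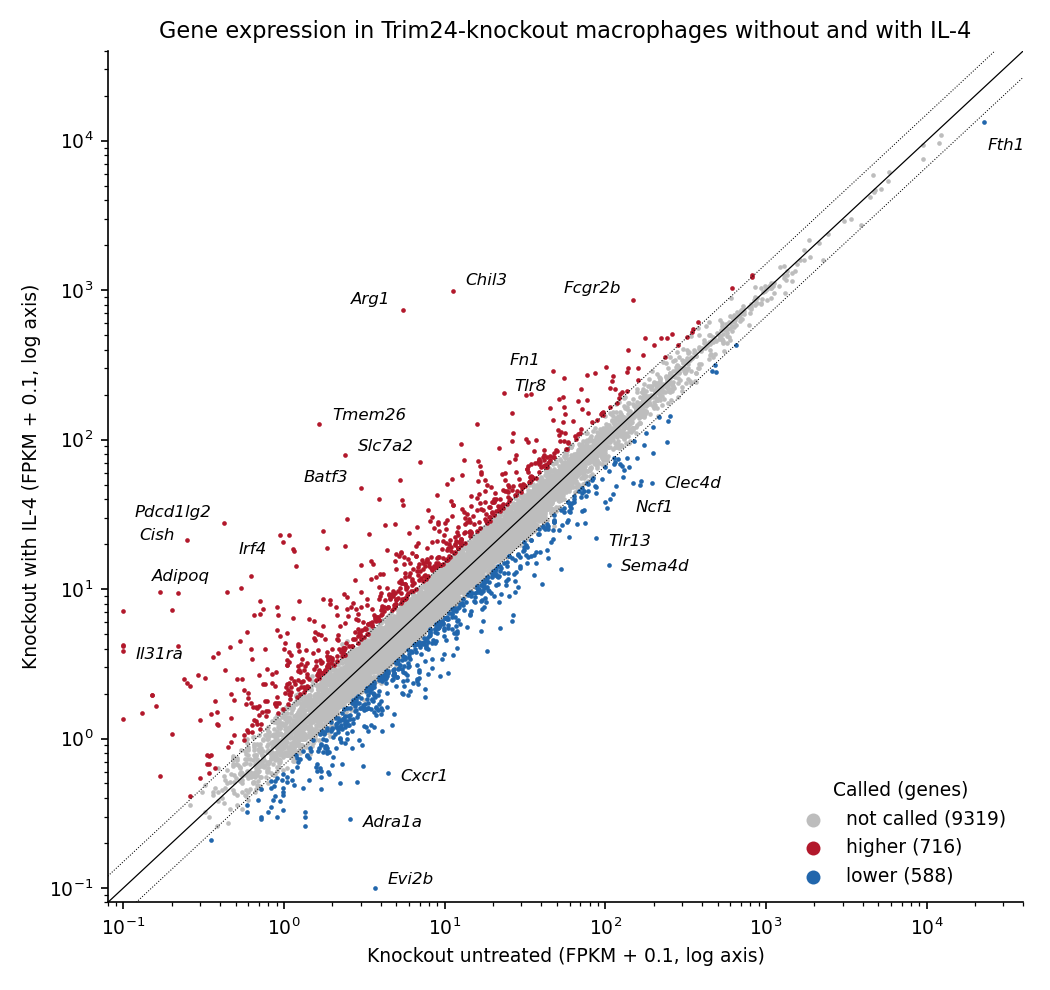
Level of each of the 10623 tested genes in untreated (horizontal) and IL-4-treated (vertical) knockout macrophages, as FPKM + 0.1 on log axes; each point is a gene, the solid line marks equal levels and the dotted lines a 1.5-fold change. The 716 genes called higher (red) spread further from the diagonal than the 588 called lower (blue), and most of the strongest inductions start below 5 FPKM.

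Genes nearly silent in untreated knockout cells led the induction. Of the 20 most induced genes, 16 were under 1 FPKM without IL-4, and 9 exceeded 20 FPKM with it. Arg1, the arginine-hydrolysing enzyme of alternatively activated macrophages, went from 5.40 to 733 FPKM (log2 ratio 7.06 ± 0.15), and Chil3, a secreted chitinase-like lectin, from 11.1 to 983 FPKM (6.46 ± 0.11). Slc7a2, a carrier of cationic amino acids including arginine, went from 2.30 to 79.1 FPKM (5.04 ± 0.10). These 3 genes were detected before IL-4. Of 8 genes commonly used to name the M2 state 7 could be tested, and all 7 rose, with a median log2 ratio of 3.35. They included the secreted protein Retnla (3.81 and 39.7 FPKM) and the mannose receptor Mrc1 (15.9 and 126 FPKM).

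Several of the other most induced genes encode receptors or ligands at the cell surface. Pdcd1lg2 (PD-L2), a ligand of the T cell inhibitory receptor PD-1, rose from 0.32 to 27.5 FPKM (12 and 1043 reads). Il31ra, a receptor subunit for IL-31, had no read in the untreated library and 154 with IL-4 (0 and 3.77 FPKM), which was at least 51.4-fold higher against a floor of 3 reads. Mrgprg, an orphan G-protein-coupled receptor, likewise went from 0 to 83 reads, at least 27.7-fold higher. Flt1, a receptor of vascular endothelial growth factor, rose from 0.44 to 10.1 FPKM (4.24 ± 0.26), and Tarm1, an activating receptor of the leukocyte receptor complex, from 1 to 74 reads, a ratio of 74 with a 95% counting interval of 12.9 to 2963.

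Secreted proteins and intracellular regulators made up most of the remainder. Adipoq, the hormone adiponectin better known from fat cells, went from 1 to 128 reads, a ratio of 128 (22.6 to 5096). Mmp13, a collagenase, rose from 0.34 to 9.46 FPKM (4.44 ± 0.45). Plekhf1 and Rab15, which act on endosomes, rose as well, the former from 0.88 to 20.5 FPKM and the latter from 0.52 to 12.2 FPKM. Tmem26, a membrane protein, was one of the 4 most induced genes with 1.56 and 127 FPKM. Of the 20 genes 6 had fractional counts, as reads were divided between similar genes, and their values are uncertain. These are Chil3 and Slc7a2, described above, and Rpl37rt, Sprr2a3, Gm7334 and Serpina3f.

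The promoters of these genes were then read for the palindrome that STAT proteins bind, in windows from 250 bases before to 50 bases after the start of each gene (RefSeq, GRCm38.p6). The motifs searched were TTC and GAA separated by 3 or by 4 bases of any kind, which read the same on both strands. Of the 50 most induced genes 38 had a window, and 18 of these (47.4%) held at least one motif, 12 the form with 3 bases and 9 the form with 4 bases. These 18 include 3 Sprr2a genes with the same letters around their shared motif and 3 Serpina3 paralogs, so they are not 18 independent promoters. Among the 50 most repressed genes 3 of 34 windows (8.82%) held one. The share was 11.8% over the 8589 tested genes with a window and 14.7% over all 27025 promoters. A match is a description of the letters and not a mapped binding site. The windows below show 30 bases on either side of the motif, cut where they reached the edge of the table or ran 30 bases into the transcript, for 8 of the induced genes, with the motif in capitals.
Cish: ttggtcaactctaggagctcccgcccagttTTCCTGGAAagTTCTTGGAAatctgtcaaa
Chil3: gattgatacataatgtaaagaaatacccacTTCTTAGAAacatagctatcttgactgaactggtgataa
Tmem26: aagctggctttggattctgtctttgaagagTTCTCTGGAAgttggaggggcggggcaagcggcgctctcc
Pdcd1lg2: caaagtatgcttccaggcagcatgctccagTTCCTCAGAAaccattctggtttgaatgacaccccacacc
Mrgprg: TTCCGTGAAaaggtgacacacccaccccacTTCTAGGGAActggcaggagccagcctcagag
Il31ra: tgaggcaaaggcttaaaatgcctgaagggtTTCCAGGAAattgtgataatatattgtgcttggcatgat
Plekhf1: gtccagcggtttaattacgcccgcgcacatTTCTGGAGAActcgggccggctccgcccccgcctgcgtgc
Retnla: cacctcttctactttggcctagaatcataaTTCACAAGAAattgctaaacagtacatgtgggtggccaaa

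These lie at chr9:107296629-107296688 (Cish, plus strand), chr3:106167698-106167766 (Chil3, minus strand), chr10:68723675-68723744 (Tmem26, plus strand), chr19:29410807-29410876 (Pdcd1lg2, plus strand), chr7:143766964-143767025 (Mrgprg, minus strand), chr13:112580815-112580883 (Il31ra, minus strand), chr7:38228074-38228143 (Plekhf1, minus strand) and chr16:48842434-48842503 (Retnla, plus strand). Cish held a pair of motifs with 3 bases each, the first beginning at the annotated start itself (position 0) and the other at position 11. Mrgprg also held a pair, one of each form, at positions -32 and -2. In the other windows shown the motif began at position -172 (Chil3), -41 (Tmem26), -82 (Pdcd1lg2), -191 (Il31ra), -119 (Plekhf1) and -145 (Retnla). Tmem26 held a further motif, with 4 bases, at position -227.

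Several inhibitors of cytokine signalling rose. Of 14 CIS-SOCS and related feedback genes tested, 6 were called higher (42.9%, against 6.74% of all genes) and none lower, and the median log2 ratio of the list was 0.12. Cish, whose product competes with STAT proteins for docking sites on receptors, went from 5 to 712 reads (0.15 and 21.3 FPKM). Socs1, which blocks Janus kinases, rose from 0.98 to 22.9 FPKM (4.41 ± 0.39), Socs2 from 4 to 52 reads (0.16 and 2.14 FPKM), and Socs3 from 2.07 to 4.81 FPKM (1.18 ± 0.22). The phosphatase Ptpn2, which acts on Janus kinases and STATs, rose from 10.1 to 20.2 FPKM.

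Of 18 tested genes of the IL-4 receptor and JAK-STAT list, 1 was called higher and 2 lower (11.1%, against 5.54% of all genes), and their median log2 ratio was -0.08. Stat6 was listed at 72.6 and 59.5 FPKM (-0.29 ± 0.04) and the receptor chain Il4ra at 9.51 and 12.1 FPKM (0.34 ± 0.08), both within 1.5-fold. Jak2 rose from 10.3 to 29 FPKM (1.48 ± 0.07). The phosphatase Ptpn6 (SHP-1) fell from 114 to 70.5 FPKM, and Il13ra1, which pairs with Il4ra to bind IL-13 as well as IL-4, fell from 8.02 to 5.30 FPKM (-0.59 ± 0.13), just past the 1.5-fold threshold. The call for Il13ra1 was lost at a pseudocount of 1 FPKM (-0.52) and with the length trend removed (-0.58). None of the 6 STAT genes tested was called in either direction.

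The listed transcription factors were called higher more often than genes at large. The families were chosen with earlier results of these data known, so their shares may not hold for all transcription factors. Across 24 families, 278 factors were tested, of which 41 (14.7%, against 6.74% of all genes) were called higher and 16 (5.76%, against 5.54%) lower. Their median log2 ratio was 0.03, so that most members of most families stayed near 0. Families differed in direction. Both tested EGR factors, 6 of 17 ATF and CREB factors and 3 of 6 C/EBP factors were called higher, and 3 of 17 homeobox and POU factors and 2 of 11 of the group of ZEB, SNAI, PRDM and HIVEP factors were called lower, with none in the opposite direction for EGR, C/EBP and those last 2 groups.

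**Figure D2:**
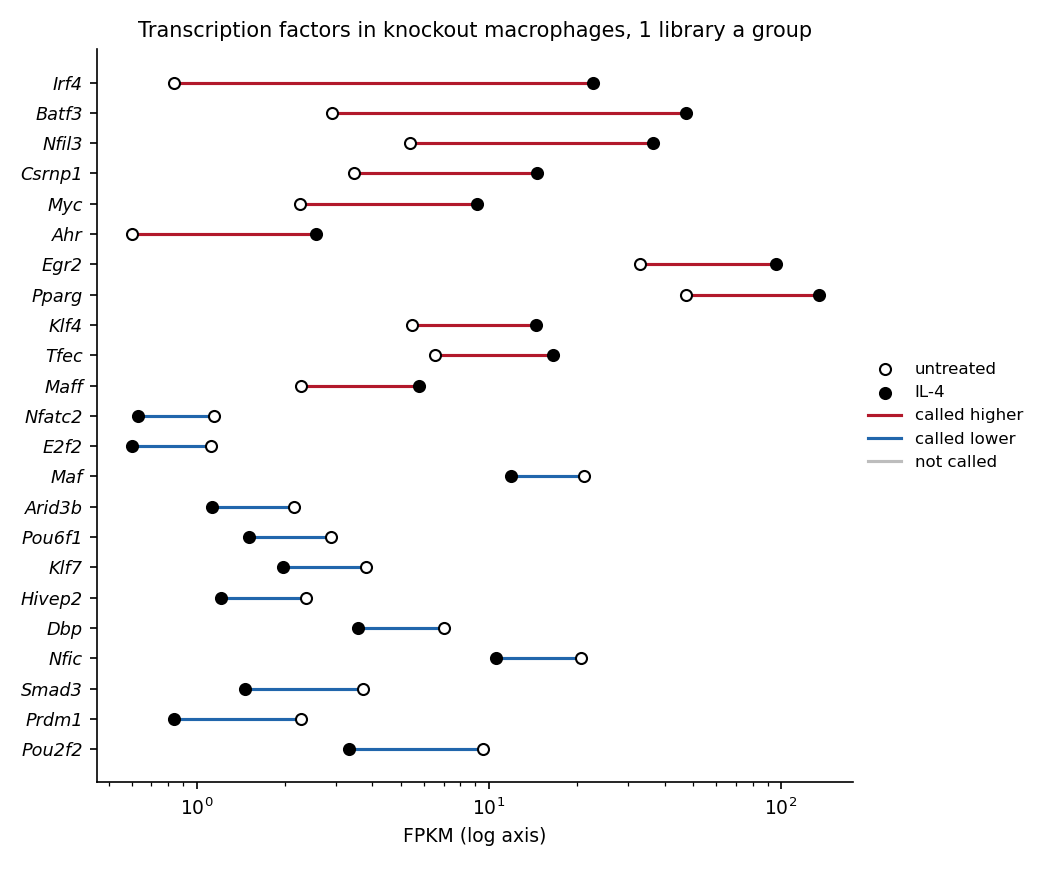
FPKM (log axis) of 11 of the most induced and the 12 most repressed transcription factors in untreated (open) and IL-4-treated (filled) knockout macrophages, with 1 library for each point; line colour gives the call. Irf4 and Batf3 stand out by the length of their lines, and the repressed factors fell by less than 3-fold.

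Irf4, an interferon regulatory factor that acts with AP-1 dimers in alternatively activated macrophages, rose from 0.84 to 22.8 FPKM (44 and 1186 reads, 4.60 ± 0.22). Batf3, an AP-1 family partner of IRF proteins best known from dendritic cells, rose from 2.90 to 47.5 FPKM (3.99 ± 0.31). These 2 rose over 10-fold. Nfil3, a basic leucine zipper repressor under cytokine control, followed with 5.39 and 36.5 FPKM (2.74 ± 0.14).

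Factors of growth, differentiation and ligand sensing rose by 2- to 5-fold. Csrnp1, a nuclear protein induced by growth signals, rose from 3.46 to 14.6 FPKM, and Myc, the driver of biosynthetic genes, from 2.26 to 9.10 FPKM. Ahr, the aryl hydrocarbon receptor, went from 36 to 157 reads (0.60 and 2.56 FPKM). More abundant factors moved as well: Egr2 rose from 32.9 to 96.3 FPKM, Pparg, the nuclear receptor of fatty acid handling, from 47.2 to 134.5 FPKM (1.51 ± 0.05), and Klf4 from 5.48 to 14.5 FPKM. Tfec, a macrophage-restricted relative of Mitf, rose from 6.54 to 16.6 FPKM (1.33 ± 0.15).

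Members of the MAF family moved both ways. Maf, a large MAF factor that restrains self-renewal in macrophages, fell from 21.2 to 11.9 FPKM (-0.83 ± 0.08), with partly fractional counts. The small MAF protein Maff rose from 2.28 to 5.79 FPKM (1.31 ± 0.24).

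The most repressed factors were Pou2f2 (Oct-2), a POU factor of B cells and macrophages, from 9.58 to 3.33 FPKM, Prdm1 (Blimp-1), a repressor of differentiation programmes, from 133 to 49 reads (-1.34 ± 0.24), and Smad3, the transducer of TGF-beta signals, from 3.72 to 1.46 FPKM (-1.29 ± 0.19). Nfic, a nuclear factor I protein, fell from 20.8 to 10.6 FPKM (-0.97 ± 0.07), and Dbp, an output factor of the circadian clock, from 7.05 to 3.58 FPKM. Hivep2, Klf7, Pou6f1, Arid3b, E2f2 and Nfatc2 fell with log2 ratios between -0.91 and -0.78, and of these Arid3b, E2f2 and Nfatc2 were no longer past the 1.5-fold threshold at a pseudocount of 1 FPKM.

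Repression was led by surface receptors and signalling proteins. Sema4d, a semaphorin that binds plexin B receptors, fell from 105 to 14.4 FPKM (5329 and 730 reads). Adra1a, an adrenergic receptor, fell from 109 to 8 reads (-3.15 ± 0.51), and Cxcr1, a chemokine receptor of neutrophils, from 53 to 6 reads (-2.91 ± 0.60). Slc40a1 (ferroportin), the exporter of iron, fell from 47 to 6 reads, and Slco4a1, an organic anion carrier, from 104 to 19. These genes were thus weakly expressed already without IL-4, apart from Sema4d.

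Among better expressed genes, Dio2, which activates thyroid hormone, fell from 22.1 to 5.36 FPKM (-2.03 ± 0.08), Cd24a, a sialoglycoprotein of the cell surface, from 26.3 to 6.63 FPKM, and Arhgap22, which inactivates Rac, from 25.97 to 6.05 FPKM. Pdgfb, a platelet-derived growth factor chain, fell from 70 to 13 reads. Evi2b had the lowest ratio of all, with 140 reads without and none with IL-4 (at least 46.7-fold lower against a floor of 3 reads), but its counts were fractional, both wild-type libraries listed it at 0, and it shares its locus with other Evi2 transcripts, so its value is uncertain. Lrrc14b and E230016M11Rik, also among the 20 most repressed genes, had fractional counts too.

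Several receptors that sense microbes were repressed. Of 21 Toll-like receptors and adaptors tested, 6 were called lower (28.6%, against 5.54% of all genes) and 1 higher, and 14 were not called. Tlr13, a sensor of bacterial ribosomal RNA, fell from 87.5 to 21.9 FPKM (-1.99 ± 0.05), and Tlr2, the receptor of bacterial lipopeptides, from 16.7 to 5.12 FPKM (-1.69 ± 0.13). Cd180, a Toll-like receptor relative, fell from 117 to 49.1 FPKM, Cd14, the co-receptor for lipopolysaccharide, from 60.3 to 32.8 FPKM, and Tlr9, a sensor of DNA, from 134 to 65 reads. Tlr4, the lipopolysaccharide receptor itself, was listed at 13.2 and 14.2 FPKM (0.10 ± 0.06), and Tlr8 rose from 51.7 to 186 FPKM (1.85 ± 0.03). The Toll-like receptors were therefore not repressed together.

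Inflammasome genes showed the same mixture. Nlrp3, the sensor of cell damage, fell from 56 to 10 reads (1.25 and 0.22 FPKM, -2.08 ± 0.48), and Naip1, a sensor of bacterial secretion proteins, from 170 to 52 reads. The adaptor Pycard (ASC) rose from 26.3 to 45.8 FPKM (0.80 ± 0.07), and Mefv (pyrin) from 28 to 64 reads. Casp1 was listed at 47.8 and 45.3 FPKM and its substrate Il18 at 7.30 and 7.31 FPKM. In all, 4 of 14 inflammasome genes were called lower (28.6%, against 5.54% of all genes) and 2 higher (14.3%, against 6.74%). Of the 4 lower calls 3 are Naip genes, close paralogs whose separate values are uncertain.

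**Figure D3:**
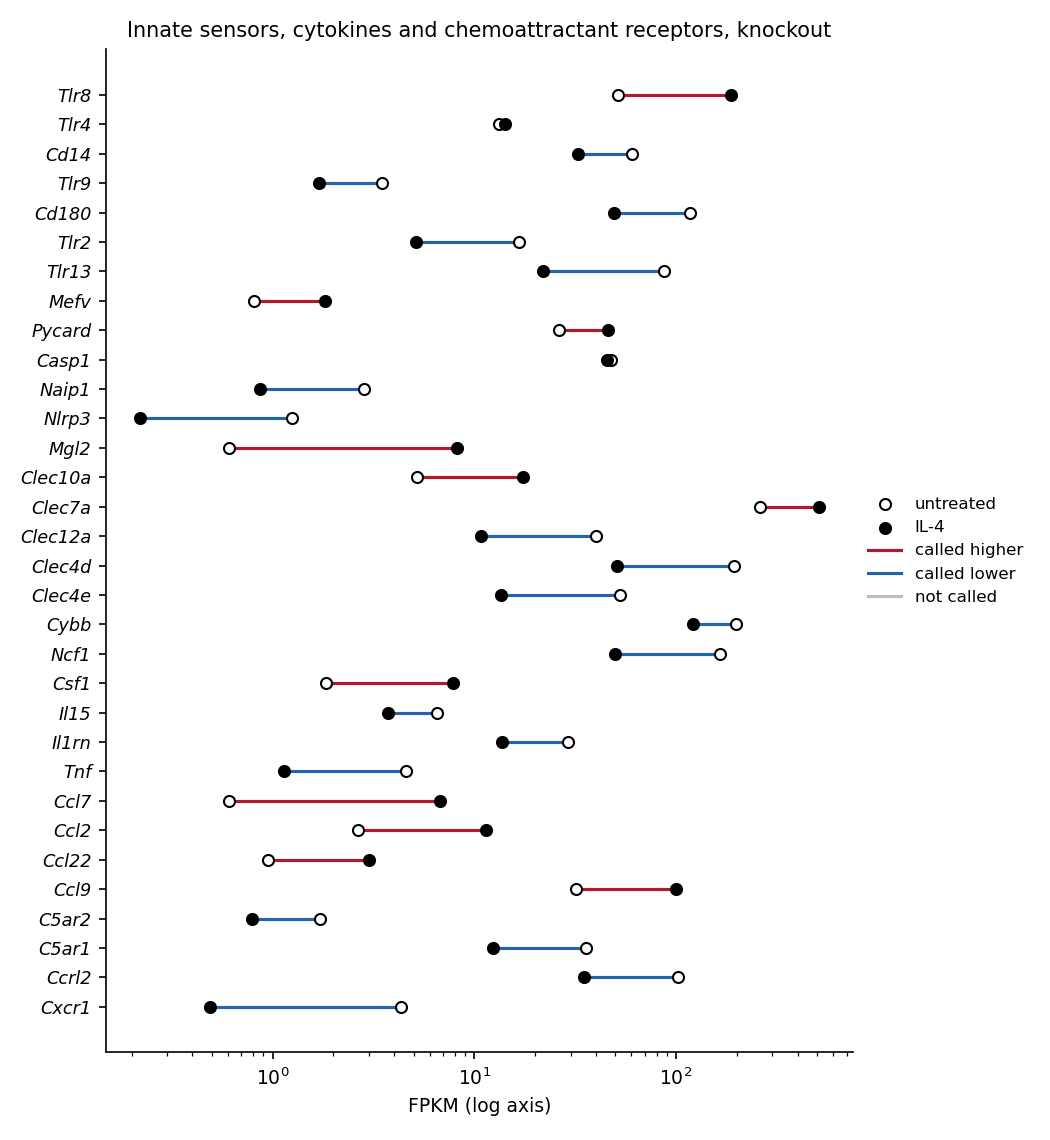
FPKM (log axis) of 32 genes of microbial sensing, the phagocyte oxidase, cytokines, chemokines and chemoattractant receptors in untreated (open) and IL-4-treated (filled) knockout macrophages, with 1 library for each point and the call given by line colour. Within most groups members move both ways, as Tlr8 against Tlr13 or Mgl2 against Clec4e, whereas both oxidase genes drawn fell.

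Among C-type lectin receptors some rose and others fell. Mgl2 and Clec10a, receptors for galactose-type sugars, both rose, Mgl2 from 0.61 to 8.17 FPKM (3.54 ± 0.45) and Clec10a from 5.22 to 17.3 FPKM, as did Clec7a (Dectin-1), the receptor of fungal beta-glucan, from 259 to 511 FPKM. Clec4e (Mincle) and Clec4d, receptors for mycobacterial glycolipids encoded side by side, both fell, Clec4e from 52.7 to 13.5 FPKM (-1.95 ± 0.08) and Clec4d from 195 to 50.8 FPKM (-1.93 ± 0.06). The inhibitory receptor Clec12a fell from 39.98 to 10.8 FPKM. Of the 13 tested, 4 rose, 3 fell and 6 were not called.

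The phagocyte oxidase fell at several subunits. Ncf1 (p47phox) went from 164 to 49.7 FPKM (-1.72 ± 0.04) and the catalytic subunit Cybb from 199 to 121 FPKM, and in all 3 of 9 genes of the oxidase, nitric oxide and itaconate list were called lower and none higher. Among 12 tested cytokines, Tnf fell from 83 to 20 reads (4.57 and 1.14 FPKM, -1.91 ± 0.36), Il1rn, the IL-1 receptor antagonist, from 29.2 to 13.7 FPKM, and Il15 from 92 to 52 reads. Csf1, the growth factor of macrophages, was the cytokine that rose, from 1.84 to 7.84 FPKM (2.03 ± 0.17).

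Feedback genes of the NF-kB pathway were lower in 5 of 16 cases (31.3%, against 5.54% of all genes). Tnfaip2, a target of tumour necrosis factor, fell from 149 to 51.3 FPKM, and the nuclear IkB proteins Nfkbiz and Nfkbid fell from 85 to 36 and from 172 to 86 reads. The member that rose was Tnip3, from 3.39 to 15.4 FPKM (2.15 ± 0.13), whereas its paralog Tnip1, which also binds the ubiquitin-editing protein A20, fell from 61.5 to 37.5 FPKM. Interferon-stimulated genes held near 0. Of 32 tested, 3 were called higher and 2 lower, with a median of -0.05. Among them were Zbp1, a sensor of nucleic acids, which rose from 8 to 28.3 FPKM, Slfn5, which fell from 32.5 to 14.9 FPKM, and Isg15, which was listed at 9.04 and 6.04 FPKM and not called.

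Chemokines and their receptors moved in both directions. Of 11 tested ligands 6 rose (54.5%, against 6.74% of all genes) and 3 fell (27.3%, against 5.54%), and the median log2 ratio of the list was 1.10. These 11 are the ligands, of 23 with a read, that reached the read minimum. Ccl7, Ccl2, Ccl22 and Cxcl12 reached it only through their reads with IL-4. The share that rose and the median therefore lean on the read minimum. Ccl7 and Ccl2, which attract monocytes through Ccr2, rose from 6 to 66 reads (3.26 ± 0.59) and from 23 to 99 reads (2.07 ± 0.33). Ccl22, a ligand of Ccr4 on T helper and regulatory T cells, rose from 19 to 60 reads, and the abundant Ccl9 from 31.9 to 100.1 FPKM (1.65 ± 0.05). The 3 that fell, named after their values were seen, were Ccl3, from 51.6 to 24.7 FPKM, Ccl4, from 85 to 37 reads, and Cxcl16, from 26.96 to 12.5 FPKM. Ccl24 (eotaxin-2), counted with the M2 genes, rose from 6 to 62 reads.

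Receptors for chemoattractants were lower in 5 of 13 cases (38.5%) and higher in 2. C5ar1, the receptor of the complement fragment C5a, fell from 35.9 to 12.4 FPKM (-1.53 ± 0.09), its companion C5ar2 from 66 to 30 reads, and Ccrl2, a chemerin-binding receptor, from 102 to 35.01 FPKM (-1.54 ± 0.06). Regulators of G-protein signalling fell in 6 of 22 cases (27.3%) and rose in none, with Rgs1 going from 74.8 to 27.6 FPKM (-1.44 ± 0.08) and Rgs2 from 16.3 to 9.53 FPKM.

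Several genes of amino acid supply rose as arginase did. Of 20 tested targets of the transcription factor ATF4 and enzymes of one-carbon metabolism, 10 were called higher (50%, against 6.74% of all genes) and none lower, and their median log2 ratio was 0.69 against 0.01 over all genes. Phgdh and Psat1, enzymes of serine synthesis, both rose, Phgdh from 12.7 to 58.3 FPKM (2.19 ± 0.10) and Psat1 from 8.93 to 27.3 FPKM. Asns, which makes asparagine, rose from 8.43 to 25.6 FPKM, Slc7a5, a carrier of large neutral amino acids, from 3.36 to 11.5 FPKM, and Chac1, which degrades glutathione, from 23 to 107 reads (2.14 ± 0.33).

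The arginine and polyamine list contributed 7 of 20 genes called higher and none lower. Beside Arg1 and Slc7a2, these included Gatm, which makes the creatine precursor from arginine, from 9.02 to 28.1 FPKM (1.63 ± 0.11), and the arginine carrier Slc7a1, from 4.12 to 8.41 FPKM. Odc1, the first enzyme of polyamine synthesis, was listed at 13.5 and 13.8 FPKM (0.02 ± 0.10). All 20 aminoacyl-tRNA synthetases had a median of 0.44, but the individual shifts were mostly under 1.5-fold, and 3 were called higher. Yars rose from 13.7 to 28.02 FPKM and Aars was listed at 42.3 and 60.9 FPKM (0.52 ± 0.04).

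Energy metabolism moved at a few steps. Of 25 glycolysis genes 5 rose and 1 fell. Hk2, the inducible hexokinase, rose from 14.5 to 35.8 FPKM (1.29 ± 0.06), and Pfkp, a phosphofructokinase, from 32.5 to 63.5 FPKM, while Ldha, at 284 and 426 FPKM, lay just past 1.5-fold and was no longer called with any of the 3 alternatives run on named genes. None of 71 subunits of oxidative phosphorylation and none of 79 cytosolic ribosomal proteins was called in either direction, and their medians were 0.13 and 0.01. Among 39 genes of the citric acid cycle and fatty acid oxidation 1 was called, as was 1 of 25 genes of cholesterol synthesis. Nucleotide synthesis had 5 of 21 genes called higher and none lower, with the adenylate kinase Ak4 going from 53 to 277 reads (2.29 ± 0.22) and the uridine-cytidine kinase Uck2 from 38 to 117 reads.

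**Figure D4:**
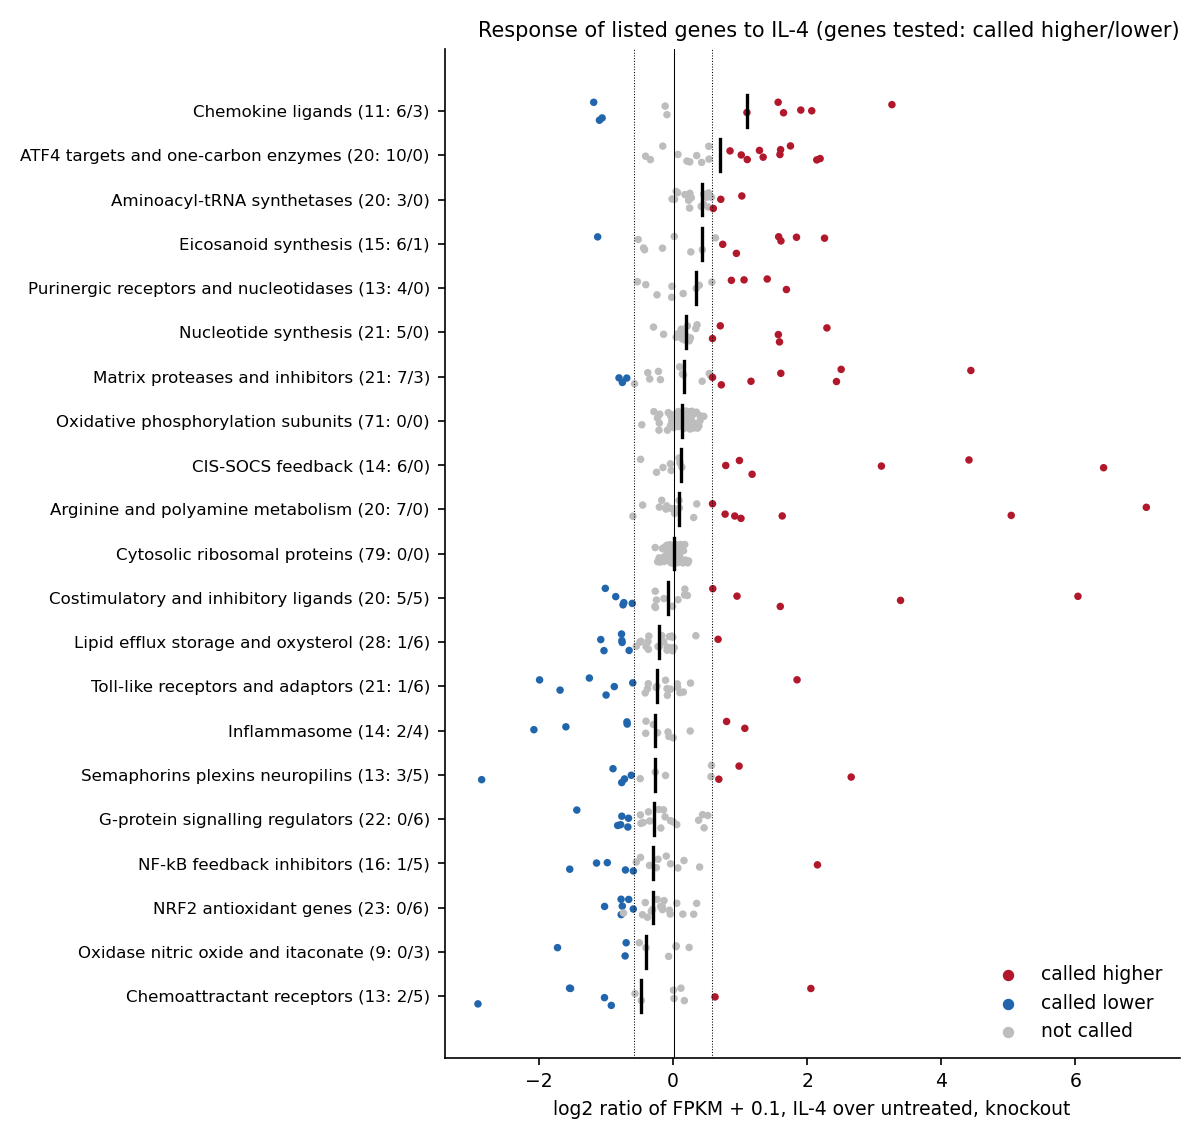
Log2 ratio (FPKM + 0.1, IL-4 over untreated) of every tested member of 21 gene lists in knockout macrophages, ordered by the list's median (black bar); each point is a gene, the dotted lines mark 1.5-fold, and the numbers give genes tested and called higher/lower. Among the lists drawn, chemokine ligands and ATF4 targets have the highest medians (1.10 and 0.69) and chemoattractant receptors the lowest (-0.47), while ribosomal proteins and oxidative phosphorylation subunits cluster near 0. The chemokine median leans on the read minimum, which 11 of 23 ligands with a read reached.

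A group of antioxidant genes fell, while iron genes moved both ways. Of 23 tested targets of NRF2, the regulator of antioxidant genes, 6 were called lower (26.1%, against 5.54% of all genes) and none higher, with a median of -0.31. Gsr, which regenerates glutathione, fell from 33.04 to 16.2 FPKM (-1.02 ± 0.08), and Gclm, a subunit of the enzyme that starts glutathione synthesis, from 17.6 to 10.2 FPKM. Hmox1, haem oxygenase, was listed at 174 and 156 FPKM (-0.16 ± 0.04). The ferritin chain Fth1, one of the most abundant transcripts, fell from 22696 to 13250 FPKM, while the transferrin receptor Tfrc rose from 54.3 to 192 FPKM (1.82 ± 0.03), and ferroportin fell as given above. Of 16 tested iron genes 2 rose and 2 fell, with a median of -0.04.

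Lipid efflux and storage genes were lower in 6 of 28 cases and higher in 1. Abca1, which exports cholesterol to apolipoprotein A-I, fell from 10.98 to 5.32 FPKM (-1.03 ± 0.07), whereas Abcg1, which exports it to high-density lipoprotein, rose from 47.6 to 75.9 FPKM (0.67 ± 0.03). Mgll, a lipase of monoacylglycerols, fell from 35.8 to 16.9 FPKM, and lipoprotein lipase (Lpl) from 487 to 285 FPKM.

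Prostanoid synthesis and sensing rose in 6 of 15 tested genes (40%) and fell in 1. Ptgs1 (cyclooxygenase-1) rose from 8.86 to 42.8 FPKM (2.26 ± 0.09), thromboxane synthase Tbxas1 from 17.8 to 53.2 FPKM, the prostacyclin receptor Ptgir from 16.8 to 60.2 FPKM (1.84 ± 0.07), and the prostaglandin E2 receptor Ptger2 from 64 to 204 reads. Hpgds, which makes prostaglandin D2, fell from 46.8 to 21.4 FPKM (-1.13 ± 0.06). Purinergic receptors and nucleotidases rose in 4 of 13 cases and fell in none, with P2ry1, a receptor of ADP, going from 3.82 to 10.3 FPKM and the adenosine receptor Adora2b from 15 to 53 reads.

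Molecules that face T cells and antibodies moved both ways. Among 20 tested costimulatory and inhibitory molecules 5 rose and 5 fell. Beside Pdcd1lg2, Cd244a rose from 6 to 101 reads, Cd40 from 18 to 59 reads, and Cd274 (PD-L1) from 29.6 to 44.6 FPKM (0.59 ± 0.05), which fell under 1.5-fold at a pseudocount of 1 FPKM. Siglec1, a sialic acid receptor, fell from 16.98 to 8.37 FPKM. The class II genes H2-Aa and Cd74 were listed at 44.98 and 46.7 FPKM and at 207 and 239 FPKM, and neither was called. Fcgr2b, the inhibitory receptor for IgG, rose from 149 to 865 FPKM (2.53 ± 0.03), whereas Fcgr1 and Fcgr4, which activate, fell from 8.90 to 4.99 FPKM and from 43.4 to 27.2 FPKM. Of 7 tested Fc receptors 2 rose, 2 fell and 3 were not called, with a median of -0.03. The larger of the 2 rises was that of Fcrls (3.15). In the peptide-loading list of 16 genes 1 was called, the immunoproteasome subunit Psmb10, which rose from 55.3 to 257 FPKM (2.22 ± 0.06).

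Secretory and cytoskeletal genes were described last among the intracellular groups. Of 30 genes of protein folding and the unfolded protein response 3 rose (10%, near the 6.74% of all genes) and none fell. Pdia4, a disulphide isomerase, rose from 34.3 to 202 FPKM (2.55 ± 0.05), as did the factors Xbp1, from 58.3 to 94.3 FPKM, and Ddit3 (CHOP), from 41.7 to 85.6 FPKM, while the chaperone Hspa5 (BiP) was listed at 210 and 226 FPKM (0.11 ± 0.03). Beside Arhgap22, the Rac-directed Arhgap24 fell from 22.4 to 9.19 FPKM and the exchange factor Vav1 from 31.95 to 19.5 FPKM, whereas the Rac activator Tiam1 rose from 1.45 to 5.10 FPKM (1.75 ± 0.15).

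Matrix, adhesion and growth factor genes included some of the larger changes. Fn1 (fibronectin) rose from 46.96 to 286 FPKM (2.60 ± 0.02), Hbegf, a ligand of the epidermal growth factor receptor, from 17 to 192 reads, Postn (periostin) from 17 to 178 reads, Timp1 and Timp3, inhibitors of matrix proteases, from 10 to 61 and from 27.5 to 173 reads, and coagulation factor F10 from 100 to 306 FPKM. Cdh1 (E-cadherin) went from 0 to 61.6 reads, at least 20.6-fold higher, Itgb3, the integrin beta-3 chain, from 4.90 to 13.6 FPKM, and Sema4b from 4.18 to 26.9 FPKM. Vegfa, the angiogenic factor, fell from 24.1 to 11.2 FPKM, and Nrp1 and Plxnb2, receptors for semaphorins, from 48.1 to 31.2 FPKM and from 69.99 to 41.1 FPKM, though Nrp1 was under 1.5-fold with the length trend removed (-0.56). Among 21 growth and repair factors 5 rose and 7 fell.

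Of 3 tested fibroblast markers 1 rose with these matrix genes. Several other genes flagged further below were also called higher in the knockout pair. Among them were Col1a2 (log2 ratio 1.19), Col5a1 (1.54), Col5a2 (1.25), Col6a1 (1.20), Col6a2 (1.26), Acta2 (1.69) and Sparc (0.73). Col1a1, a chain of the main collagen of fibroblasts, rose from 4.81 to 15.4 FPKM (319 and 1020 reads, 1.66 ± 0.09) in the knockout pair, and was not raised in the wild-type pair, with a log2 ratio of -0.36. Col3a1 was listed at 2.63 and 3.82 FPKM and Dcn at 7.93 and 8.94 FPKM, and neither was called, while the mesothelial markers Msln, Krt19 and Upk3b had too few reads to be tested. The 3 tested members of the list of 6 summed to 15.4 FPKM without and 28.1 FPKM with IL-4. Their part in the values of Fn1, Postn, Timp3, Cxcl12 (19 and 83 reads) and other matrix genes was not tested.

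The wild-type pair, which shares no library with the knockout pair, was used to see where the knockout response departed from that of normal macrophages. Of 702 genes called higher in the knockout with at least 50 reads in both pairs, 667 (95%) had a positive log2 ratio in wild-type macrophages, against 48.4% of all such genes, and of 565 called lower, 554 (98.1%) had a negative one, against 51.2%. The median log2 ratios in the knockout and wild-type pairs were 0.96 and 0.80 for the former and -0.83 and -0.86 for the latter, and the genes had been chosen on the knockout values. Of the 20 most induced genes, all 20 had a positive log2 ratio in the wild-type pair too, and 19 of the 20 most repressed had a negative one.

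**Figure D5:**
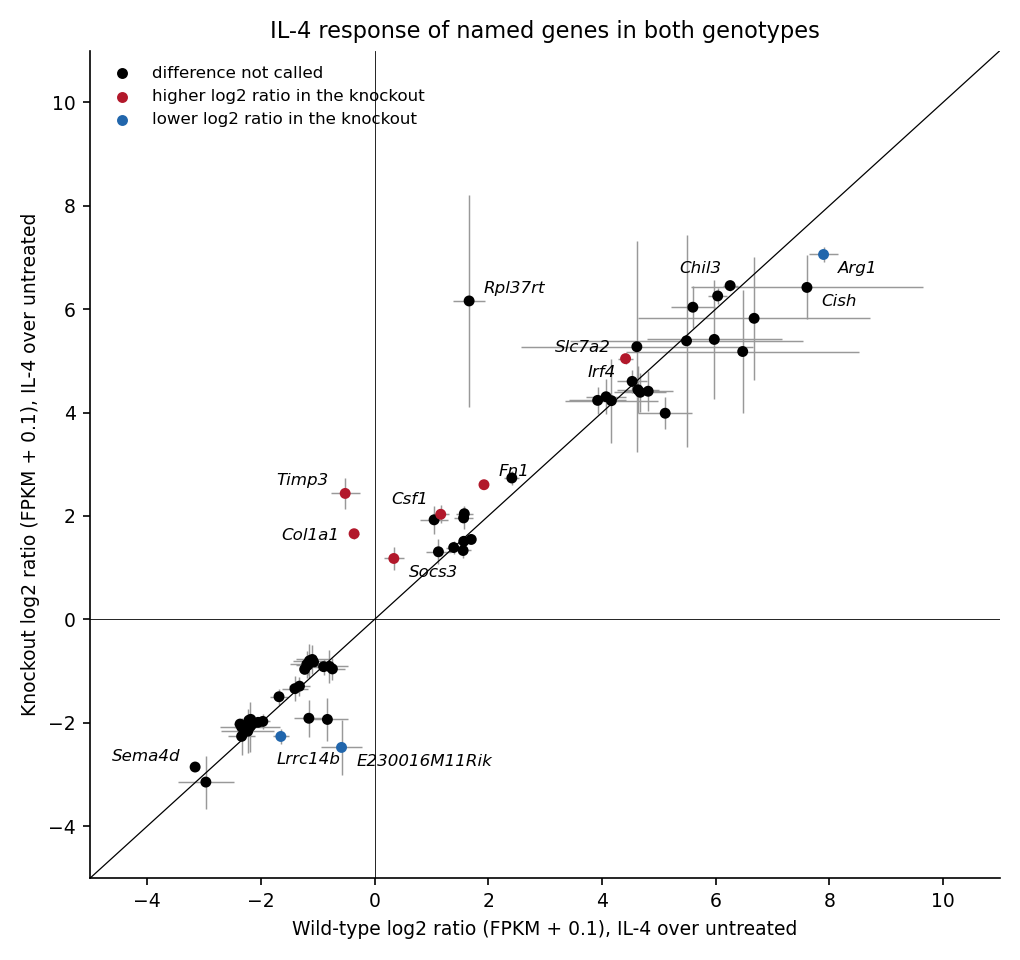
Log2 ratio (FPKM + 0.1, IL-4 over untreated) in wild-type (horizontal) and knockout (vertical) macrophages of 61 named genes with at least 50 reads in both pairs; bars are 1 counting standard error and the line marks equal responses. Most genes lie near the line, with Timp3 and Col1a1 above it and Arg1 below it; Rpl37rt, far above, rests on fractional counts with no untreated knockout read and its difference was not called.

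The difference between the responses was tested in 10456 genes (z test on log2 read ratios against counting error, Benjamini-Hochberg adjustment, difference above 1.5-fold), and 265 (2.53%) had a larger and 47 (0.45%) a smaller log2 ratio in the knockout. Arg1 had the smaller ratio in the knockout (log2 ratio 7.06, against 7.90 in the wild-type). Its levels were 5.40 and 733 FPKM in the knockout and 1.84 and 463 FPKM in the wild-type, so it was higher in the knockout library without and with IL-4. Slc7a2 (5.04 against 4.42), Fn1 (2.60 against 1.92), Csf1 (2.03 against 1.16), Socs3 (1.18 against 0.34) and Timp3 (2.44 against -0.52) had the larger ratio in the knockout. Csf1 and Socs3 started lower in the knockout, at 1.84 against 3.35 FPKM and 2.07 against 3.68 FPKM in the wild-type. With IL-4 they were close, at 7.84 against 7.63 FPKM and 4.81 against 4.68 FPKM. With the trend over transcript length removed in each pair, 65 of the 265 and 20 of the 47 were still called, and Arg1, Slc7a2 and Fn1 were not. None of the 23 transcription factors named above was among the genes called for this difference.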

How the data were processed

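RNA sequencing of 4 libraries was used, 1 for each of 4 groups. Per the labels, the authors used Bowtie for alignment, RSEM for quantification and the GRCm38/mm10 build (tool versions not given in the sources used here). The deposited tables hold RSEM expected counts, which divide reads between similar genes and need not be whole, and FPKM, which the authors scaled by transcript length and library total. Gene IDs were matched to RefSeq symbols (16365 of 16403). No column was left out.

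Genes missing from a library were set to 0. Genes with at least 50 reads over the pair were tested with the two-sided Fisher's exact test on expected counts rounded to whole numbers against the library totals (scipy 1.17.1), with Benjamini-Hochberg adjustment, a pseudocount of 0.1 FPKM, and calls at 1.5-fold and 0.05. The trend over transcript length was fitted by local regression (statsmodels 0.14.6). Counting error excludes variation between cultures or mice. The difference between genotypes was a two-sided z test of the log2 count ratios. Named genes were the 20 highest and 20 lowest called genes, the 12 highest and 12 lowest called transcription factors, and from each of 55 pathway lists the 5 largest changes and the first 3 members, with Trim24 and Lyz2 as checks of genotype and cell markers beside them. Members and lists were chosen with earlier results of these data known. Simulated counts held counting error alone, with 200 changed genes of 10456. On these the pair test recovered 196 with 2 false calls, and the difference test 185 with 3. With a length trend put in and not removed, the pair test made 935 false calls. That trend was steeper than the one in the knockout pair and ran the opposite way, so this count does not apply to the knockout calls. Given a coefficient of variation between replicates of 0.1, edgeR's exact test recovered 194 of the 200 with 0 false calls. At 0.2 or 0.4 it recovered 0 of the 200. All 200 changes had the same size on the log2 scale, up or down, so other sizes were not tried. The simulation held no variation between cultures or mice, so it cannot show how the tests behave with it. Alternatives varied the pseudocount, read minimum, scaling (edgeR 4.0.16, DESeq2 1.42.0, R 4.3.3), fold, transcript-length trend and an assumed variation between replicates. Promoter sequences were RefSeq (GRCm38.p6), and plots used matplotlib 3.10.9 under Python 3.11.15. Some named genes are not reported here.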

Additional observations from a re-analysis of the deposited data

Results flagged for a closer look

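The genes below are named genes, or members of the lists, whose log2 count ratio differed between the knockout and wild-type pairs (z test against counting error, adjusted p under 0.05 and over 1.5-fold). With 1 library in each group, the difference between libraries cannot be told from one between genotypes.

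Collagens and other matrix genes made up most of them. The difference, knockout minus wild-type on the log2 scale, was 2.04 for Col1a1, 1.31 for Col1a2, 0.93 for Col3a1, 2.60 for Col5a1, 1.71 for Col5a2, 0.74 for Col6a1 and 0.72 for Col6a2. Sparc, a collagen-binding glycoprotein, differed by 0.81, Acta2, smooth muscle actin, by 1.49, and Timp3 by 3.19. Without IL-4 these genes were lower in the knockout library than in the wild-type one, as for Col1a1 with 4.81 and 10.9 FPKM and Col1a2 with 5.53 and 10.5 FPKM, whereas with IL-4 Col1a1 was listed at 15.4 and 8.46 FPKM. With IL-4, Col3a1, Col6a1, Col6a2 and Sparc were still lower in the knockout library, as for Col6a1 with 8.95 and 12.6 FPKM. All 10 were still called with the length trend removed. The fibroblast marker Dcn was not called for the difference, and the part of other cells in these values was not tested.

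Among signalling and metabolic genes, Socs3 differed by 0.86, Csf1 by 0.87, Fn1 by 0.69 and Slc7a2 by 0.59, each with the larger ratio in the knockout, and Arg1 by -0.88. Arg1 was listed at 5.40 and 733 FPKM in the knockout and at 1.84 and 463 FPKM in the wild-type. Csf1 was listed at 1.84 and 7.84 FPKM in the knockout and at 3.35 and 7.63 FPKM in the wild-type. For Socs3 the values were 2.07 and 4.81 FPKM in the knockout and 3.68 and 4.68 FPKM in the wild-type. With the length trend removed, Socs3 (0.86) and Csf1 (0.76) were still called, and Fn1 (0.38), Slc7a2 (0.29) and Arg1 (-0.80) were not.

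Serpina3n differed by -1.47 and was not called with the length trend removed (-1.44). E230016M11Rik differed by -2.06 and Lrrc14b by -0.62, and both were still called. The counts of these 3 genes were fractional.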

How the results depend on the processing

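At a fold above 2, the calls numbered 329 higher and 197 lower in place of 716 and 588. No replicates exist to estimate their variation. When edgeR's exact test was given a coefficient of variation between replicates of 0.2, 189 genes were called higher and 55 lower, and at 0.4 the numbers were 35 and 1, whereas at 0.1 they were 545 and 397. Of the 182 named genes called, 174, 112 and 29 were kept at 0.1, 0.2 and 0.4. Other pseudocounts, read minimums and scalings, and removal of the length trend, gave counts within 1.5 times, from 495 to 842 higher and from 397 to 653 lower, and no called gene changed sign under any alternative that tested it. Transcription factors called lower numbered 10 at a pseudocount of 1 FPKM in place of 16. The difference between genotypes was more dependent on processing. The 265 genes with the larger ratio in the knockout became 69 with the length trend removed and 64 at a fold above 2, and the 47 with the smaller ratio became 28 with at least 200 reads in each pair and 15 at a fold above 2. No paired analysis was possible because each group holds 1 library. Genes near 50 reads, such as Slc40a1 with 47 and 6 reads, are the least precise.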

Other observations

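Clusters of related genes, chosen after their values were seen, rose together in the knockout pair. Of the Serpina3 serine protease inhibitors, Serpina3g went from 1.09 to 14.1 FPKM (log2 ratio 3.58 ± 0.30), Serpina3h from 1.03 to 18.3 FPKM (4.03 ± 0.30) and Serpina3n from 2.37 to 7.25 FPKM (1.57 ± 0.22). Their sequences are similar and their counts fractional, so the division between members is uncertain. Sprr2a1 and Sprr2a2, small proline-rich proteins of epithelial barriers, were listed with identical values, 0.05 and 1.84 FPKM, and cannot be told apart. Of the MS4A membrane proteins, Ms4a7 rose from 26.3 to 152 FPKM (2.52 ± 0.08), and Ms4a4a from 1.66 to 24.3 FPKM (3.79 ± 0.35) with fractional counts.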
